A study of Caenorhabditis elegans with 6 samples.

Results

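The genes described here are the sperm genes of *C. elegans* whose symbol in the WBcel235 annotation has the prefix *msp*, *nspd*, *ssp*, *ssq*, *spe* or *smz* followed by a number. The prefixes hold 100 symbols, of which 93 are listed in the deposited tables. A gene was kept as a member when at least 10 reads covered it in all 3 control libraries or in all 3 *unc-62* RNAi libraries. This left 44 members among 7333 genes that passed the same filter, of 17682 genes listed. There were 19 *msp*, 9 *nspd*, 5 *ssp*, 4 *ssq* and 7 *spe* members, and no *smz* gene passed. The filter was passed in both treatments by 36 members, only in control by 3 and only upon *unc-62* RNAi by 5.

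The study asked how *unc-62*, a homeobox gene of the Meis and Homothorax type, affects gene expression in adult worms. Both groups were sterile hermaphrodites of strain TJ1060, which the labels describe as carrying *fem-15(b26)* together with *spe-9(hc88)*, in 3 batches of about 10000 worms raised at 25°C, the temperature at which the strain is sterile. From day 1 of adulthood each batch was divided between *unc-62* RNAi bacteria and bacteria with the empty vector, called control RNAi, and kept for 3 days at 20°C. Poly-A RNA of whole day 4 worms was then read at the 3′ ends of transcripts, which gave 3 control and 3 *unc-62* RNAi libraries. Both groups thus carry the same sterile genotype, and no wild-type group is among these libraries. The paper's general methods place RNAi of adults on plates with the drug FUDR, ampicillin and IPTG, though its sequencing section does not name these additions. Both groups would share them. Because RNA was taken from whole worms, fewer sperm or germ cells cannot be told apart from less sperm-gene RNA per cell.

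Hermaphrodites of *C. elegans* make sperm late in larval life, store them, and then switch the germline to oocytes. Major sperm protein, encoded by the *msp* genes, forms the filaments by which the amoeboid sperm crawls and is also released as a signal that starts oocyte maturation and ovulation. The *ssp* and *ssq* genes are named as sperm-specific families, class P and class Q, and the *nspd* genes as nematode-specific peptides, group D. The *spe* genes were named from mutants with defective spermatogenesis and act at many steps, from the assembly of sperm organelles to sperm activation and fertilization. The strain itself carries a mutation in one of them, *spe-9*, which encodes a sperm surface protein needed for fertilization. The members' protein and promoter sequences were not analysed here.

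Libraries held between 15188765 and 22868980 uniquely mapped reads. The targeted gene, *unc-62* (T28F12.2), was covered by 27, 31 and 26 reads in the control libraries and by 17, 39 and 25 in the *unc-62* RNAi libraries, so that a lower level was not detected (log2 fold change -0.27, standard error 0.28, adjusted p = 0.746 by limma with Benjamini-Hochberg adjustment). These reads thus do not check which treatment a library had. The libraries of each treatment were sequenced in a lane of their own, so lane and treatment cannot be told apart. Levels are given below as RPM, reads per 1000000 uniquely mapped reads of the library. Fold changes are *unc-62* RNAi over control as differences of TMM-scaled log2(RPM + 0.05), fitted with the replicate number as a block, and they understate the change of genes with few reads.

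As a group, the sperm genes made up a smaller share of the reads upon *unc-62* RNAi. The 44 members together had 382, 986 and 667 RPM in control replicates 1, 2 and 3 and 259.9, 457 and 279.6 RPM in the *unc-62* RNAi libraries. The control mean was 678 ± 302 RPM and the *unc-62* RNAi mean 332 ± 108 RPM (SD, n = 3 each). Each *unc-62* RNAi library was below the control library with the same number, by 1.47-fold, 2.16-fold and 2.39-fold, but the groups overlapped, since control replicate 1 was below *unc-62* RNAi replicate 2. No test was made of the sum, whose genes were chosen with earlier results of these data known. Over all 93 listed genes, with no filter on reads, the control mean of the sum was 690 ± 307 RPM and the *unc-62* RNAi mean 340.0 ± 109 RPM (SD, n = 3 each).

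Counting error, taken over reads, was small beside this spread. Members took 0.0382% of the uniquely mapped reads in control replicate 1 (95% Wilson interval 0.0372% to 0.0392%) and 0.0986% in control replicate 2 (0.0971% to 0.1001%). The control libraries thus differed among themselves by 2.58-fold from lowest to highest. The means of the groups differed by 2.04-fold, which is an unlike measure, and neither value uses the replicate numbers. Among the *unc-62* RNAi libraries the highest share, in replicate 2, was 0.0457% (0.0448% to 0.0465%) and the lowest, in replicate 1, was 0.0260% (0.0252% to 0.0268%). The intervals cover counting error of reads only, and not variation between batches. Reads were not counted as separate molecules, so the intervals may be too narrow.

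**Figure D1:**
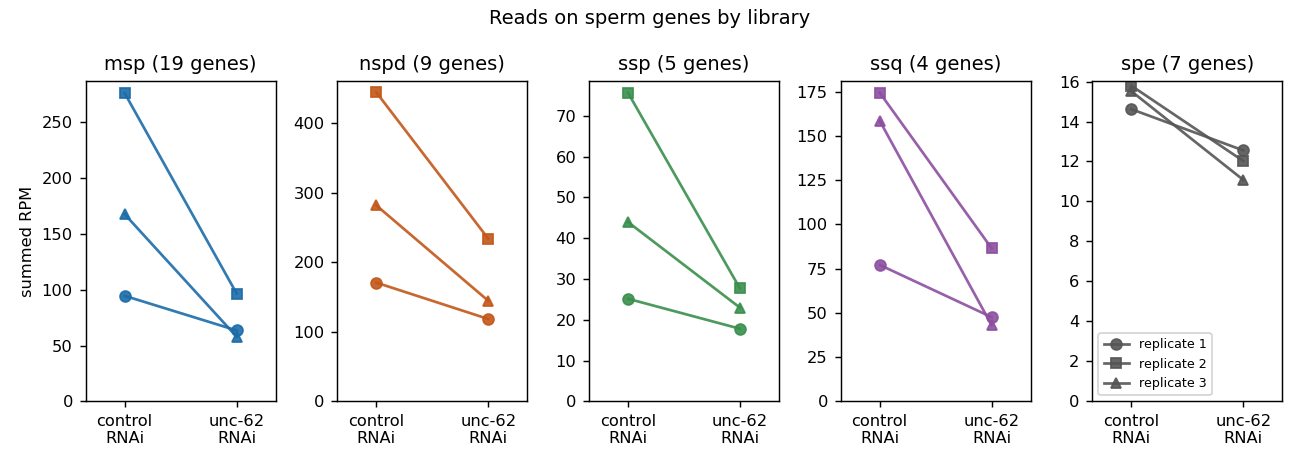
Summed level of the members of each prefix (RPM, linear axis from 0 with its own scale in each panel) in the control RNAi and *unc-62* RNAi libraries. Each line joins libraries with the same replicate number. All lines go down, while control replicate 1 lies below *unc-62* RNAi replicate 2 for *msp*, *nspd*, *ssp* and *ssq*, and for *spe* the 3 control libraries lie above the 3 *unc-62* RNAi libraries, which does not hold without *spe-18*.

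In the sums of *msp*, *nspd*, *ssp* and *ssq* alike, control replicates 2 and 3 were the highest, followed by *unc-62* RNAi replicate 2 and then control replicate 1. Summed RPM of the *msp* members was 94.5, 276 and 167 in control, against 63.5, 96.6 and 57.9 upon *unc-62* RNAi. That of the *nspd* members was 171, 444 and 282 in control, against 118, 234 and 145 upon *unc-62* RNAi. In both families control replicate 2 was highest of the 6 libraries and control replicate 1 was within the range of the *unc-62* RNAi libraries. Summed RPM of the *ssp* members was 25.2, 75.6 and 43.9 in control, against 17.8, 27.7 and 23.0 upon *unc-62* RNAi. For the *ssq* members it was 77.1, 174 and 159 in control, against 47.6, 86.5 and 43.1 upon *unc-62* RNAi, again with control replicate 1 inside the range of the other group. The 7 *spe* members together were nearly level among control libraries, at 14.6, 15.8 and 15.5 RPM, and were at 12.6, 12.02 and 11.1 RPM upon *unc-62* RNAi, without overlap. The control mean of their sum, 15.3 ± 0.613 RPM, was 1.29-fold the *unc-62* RNAi mean of 11.9 ± 0.747 RPM (SD, n = 3 each). Both the even control level and the gap rested on *spe-18*. Without it, the other 6 had 9.94, 7.60 and 7.501 RPM in control and 8.53, 6.996 and 6.76 RPM upon *unc-62* RNAi, which overlapped. Whether the *spe* genes differed from the other families was not tested.

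Gene by gene, 2 of the 44 members fell at an adjusted p under 0.1 (limma with Benjamini-Hochberg adjustment over 7333 genes), and both are *msp* genes. Over all genes tested, 0.818% were called lower and 0.491% higher. No member was called higher by limma, by edgeR (0.518% of all genes) or by DESeq2 (1.39%), and none was higher at an unadjusted limma p under 0.05 (4.79%). At that unadjusted threshold 28 members were lower, against 8.56% of all genes, and these were 14 of 19 *msp*, 6 of 9 *nspd*, 3 of 5 *ssp*, 4 of 4 *ssq* and 1 of 7 *spe* members. The level was lower in all 3 replicates for 32 members, against 19.8% of all genes, and higher in all 3 for none, against 16.4%. Every *unc-62* RNAi library was below every control library for 8 members, against 6.93% of all genes, and above for none, against 6.44%. Among the 36 members that passed the filter in both treatments, every *unc-62* RNAi library was below every control library for 6. At the unadjusted threshold 26 of these 36 were lower, and 30 were lower in all 3 replicates. The *msp* and *ssq* counts above include *msp-152* and *ssq-3*, which passed the filter only in control, the group where they were high.

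The adjusted calls depended on the fit more than the fold changes did. No member was called lower without replicate 1 (0.00% of all genes), without replicate 2 (0.259%) or with no replicate block (1.12%). Without replicate 3, 32 members were called lower, in a fit that called 705 genes lower in all (9.61%). On the recovered reads edgeR called the same 2 members lower (0.859% of all genes) and DESeq2 called 18 (2.62%). Rank products called 7 lower (1.57%) and 0 higher (0.914%), and limma with no filter on reads called 13 lower (1.01%) and 0 higher (0.618%). At an unadjusted p under 0.05 the count of lower members was 26 without replicate 1 (4.35% of all genes), 16 without replicate 2 (4.12%), 34 without replicate 3 (13.1%) and 14 with no replicate block (5.88%). Single control libraries were also left out, with no block. Without control replicate 1, 4 members were called lower (1.04% of all genes) and 30 were lower at the unadjusted threshold (6.0%). Without control replicate 3, none was called lower (0.191%) and 2 were lower at the unadjusted threshold (4.62%), so the members' share at that threshold was then about that of all genes. The members' fold changes are not independent evidence of each other, because they share libraries in which the families moved together.

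The median log2 fold change was -1.04 over the 44 members, beside 0.04 over all 7333 genes tested, and their range was -2.19 to 0.46. Over the 36 members that passed the filter in both treatments it was -1.07. By prefix, the median was -1.29 for *msp*, -1.06 for *nspd*, -0.71 for *ssp*, -1.21 for *ssq* and -0.04 for *spe*. Within replicates 1, 2 and 3 the median of the 44 members was -0.51, -1.36 and -1.26, beside 0.03, -0.06 and -0.05 over all genes tested. Replicate 1 showed the smallest difference, and in the *msp* genes its median was -0.51 against -1.55 and -1.70 in the other replicates. Below 0 were all 9 *nspd* and all 4 *ssq* members, 17 of 19 *msp*, 4 of 5 *ssp* and 5 of 7 *spe* members, against 45.9% of all genes tested. Of the 36 members that passed the filter in both treatments, 34 were below 0.

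**Figure D2:**
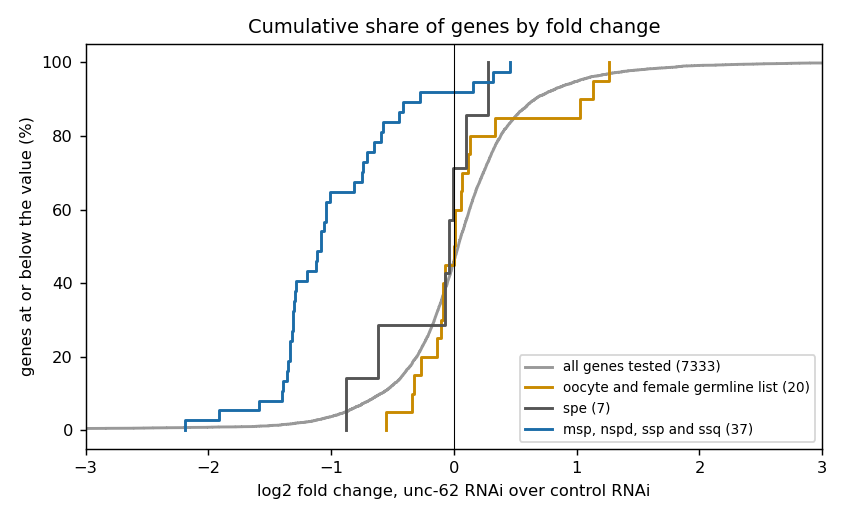
Cumulative share of genes (%) at or below each log2 fold change (*unc-62* RNAi over control RNAi) for the *msp*, *nspd*, *ssp* and *ssq* members, the *spe* members, a list of oocyte and female germline genes, and all genes tested. The axis shows -3 to 3, and some of all genes lie outside it. The line of the 37 *msp*, *nspd*, *ssp* and *ssq* genes is shifted to the left, with a median of -1.08, while the *spe* and oocyte lines lie near that of all genes, with medians of -0.04 and 0.01. The *spe* line includes *spe-6*, *spe-36* and *spe-48*, which passed the filter on reads only upon *unc-62* RNAi.

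The *msp* genes included both members that passed the test. *msp-49* (C34F11.6) had 3.75, 11.0 and 6.34 RPM in control replicates 1, 2 and 3 and 1.23, 2.58 and 1.51 RPM upon *unc-62* RNAi. Its 3 *unc-62* RNAi libraries were all below the 3 control libraries, and the means of 7.03 ± 3.67 and 1.77 ± 0.713 RPM (SD, n = 3 each) differed 3.96-fold (log2 fold change -1.92, standard error 0.22, adjusted p = 0.0674 by limma with Benjamini-Hochberg adjustment). *msp-50* (C34F11.4) had 4.61, 13.7 and 8.85 RPM in control and 1.64, 4.90 and 2.59 RPM upon *unc-62* RNAi. Here the groups overlapped slightly, as *unc-62* RNAi replicate 2 was above control replicate 1, while the fold change was alike in the 3 replicates at -1.48, -1.55 and -1.73 (mean -1.59, standard error 0.20, adjusted p = 0.0719 by limma with Benjamini-Hochberg adjustment). Both calls were lost without replicate 1, without replicate 2 and with no replicate block, and both were also made by edgeR on the recovered reads.

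The lowest fold change of all members was that of *msp-152* (ZK546.6), which did not pass the test. It was covered by 21, 62 and 69 control reads and by 2, 30 and 14 reads upon *unc-62* RNAi, or 1.38, 3.63 and 3.21 RPM against 0.117, 1.31 and 0.757 RPM. Its groups did not overlap, with a fold change of -2.19 on the log2 scale (standard error 0.37, adjusted p = 0.116 by limma with Benjamini-Hochberg adjustment), though the value of *unc-62* RNAi replicate 1 rests on 2 reads. *msp-152* passed the filter on reads only in control, the group where it was high, so the filter itself favoured such a difference.

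The *msp* genes with the highest mean RPM were *msp-64*, *msp-78* and *msp-45*. *msp-64* (ZK1248.6) had 13.6, 34.8 and 22.5 RPM in control and 7.94, 14.0 and 6.43 RPM upon *unc-62* RNAi (log2 fold change -1.31, standard error 0.27). *msp-78* (T13F2.11) had 10.1, 33.7 and 20.8 RPM in control and 6.48, 11.3 and 5.51 RPM upon *unc-62* RNAi (log2 fold change -1.40, standard error 0.31). *msp-45* (F58A6.8) had 8.49, 28.7 and 17.8 RPM in control and 6.48, 8.53 and 5.35 RPM upon *unc-62* RNAi (log2 fold change -1.31, standard error 0.35). In each of them the libraries of replicate 1 were the closest pair, and the adjusted p was 0.144, 0.162 and 0.206 by limma with Benjamini-Hochberg adjustment.

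The highest fold change among *msp* genes was that of *msp-38* (K08F4.8), covered by 7, 35 and 4 control reads and by 13, 18 and 13 reads upon *unc-62* RNAi. Its levels were 0.461, 2.05 and 0.186 RPM in control and 0.759, 0.787 and 0.703 RPM upon *unc-62* RNAi, so the *unc-62* RNAi libraries lay inside the range of control (log2 fold change 0.31, standard error 0.63, adjusted p = 0.878 by limma with Benjamini-Hochberg adjustment). The sign of this value turned without replicate 3. *msp-76* (ZK1251.6), chosen after its values were seen, was the other *msp* gene above 0 (log2 fold change 0.16, standard error 1.05). It had 6.39 and 14.7 RPM in control replicates 1 and 2 but 0.839 RPM in control replicate 3, and 5.31, 2.89 and 7.78 RPM upon *unc-62* RNAi. It was the only member at which control replicate 3 was under 1/3 of every other library, which held for 1.45% of all genes. The other 11 *msp* members had log2 fold changes between -1.36 and -0.45.

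**Figure D3:**
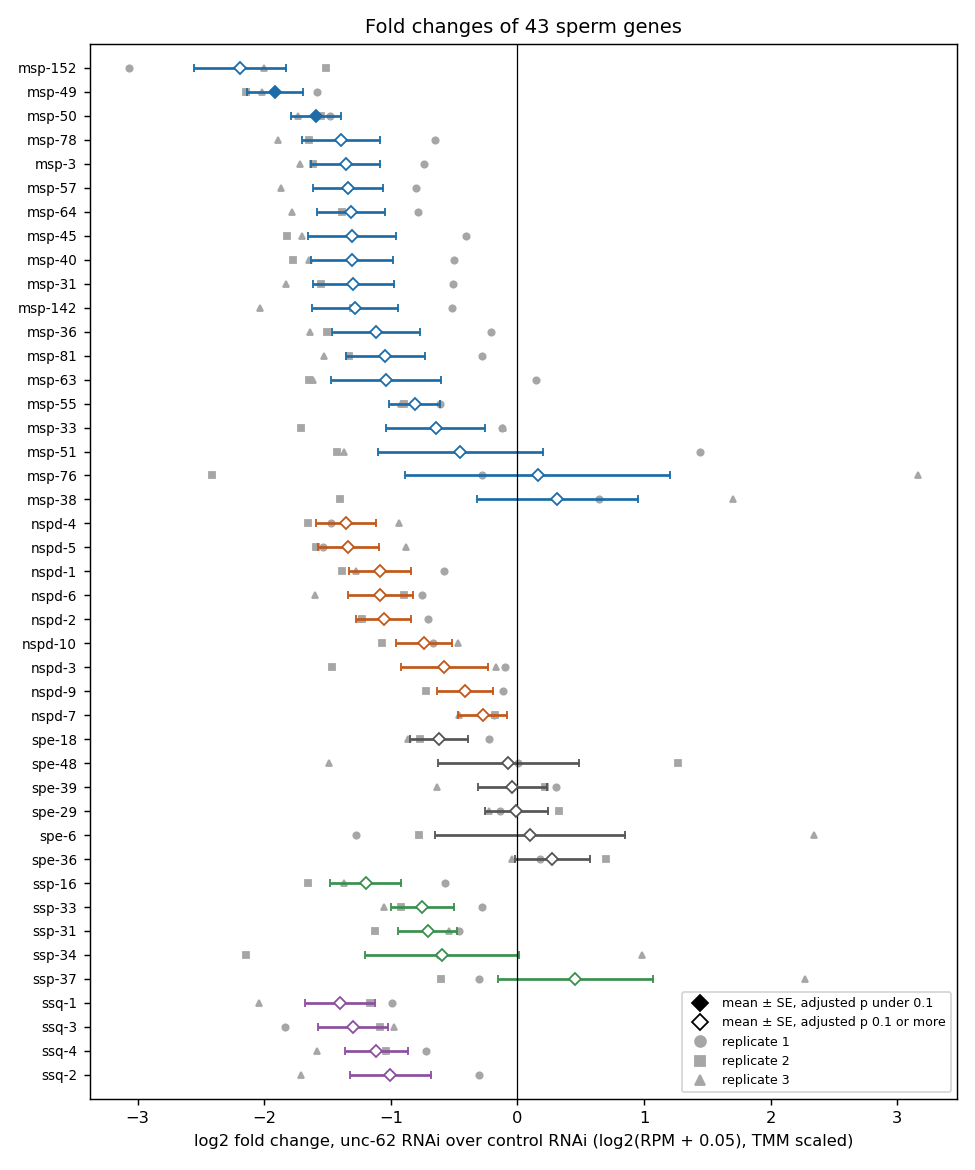
Log2 fold change (*unc-62* RNAi over control RNAi) of 43 of the 44 members, by prefix, with the fitted mean ± SE as diamonds and the 3 replicates in grey. Filled diamonds mark the 2 members with an adjusted p under 0.1, *msp-49* and *msp-50*. Most diamonds of *msp*, *nspd* and *ssq* lie left of 0, the 6 drawn for *spe* lie between -0.62 and 0.28, and *msp-76*, *spe-6* and *ssp-37* have replicate 3 far to the right.

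The families named as sperm-specific, *ssp* and *ssq*, had lower values of their best covered members. *ssq-1* (K07F5.11) had 45.0, 87.7 and 83.1 RPM in control and 22.9, 41.2 and 19.9 RPM upon *unc-62* RNAi, with no overlap of the groups (log2 fold change -1.40, standard error 0.28, adjusted p = 0.141 by limma with Benjamini-Hochberg adjustment). *ssq-2* (T28H11.5) had 26.7, 73.4 and 66.3 RPM in control and 22.0, 38.6 and 19.9 RPM upon *unc-62* RNAi (log2 fold change -1.01, standard error 0.32). *ssq-4* (T28H11.1) had 3.95, 10.6 and 7.31 RPM in control and 2.39, 5.42 and 2.38 RPM upon *unc-62* RNAi (log2 fold change -1.11, standard error 0.25). In *ssq-2* and *ssq-4* control replicate 1 was below *unc-62* RNAi replicate 2, and the other controls were above all *unc-62* RNAi libraries. The remaining *ssq* gene, *ssq-3*, had a log2 fold change of -1.30 with no overlap, on 6 to 46 reads per library. It passed the filter on reads only in control, which favoured a lower value upon *unc-62* RNAi.

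Among *ssp* genes, *ssp-16* (T27A3.3) had 16.7, 56.6 and 33.6 RPM in control and 11.3, 18.9 and 12.8 RPM upon *unc-62* RNAi (log2 fold change -1.20, standard error 0.28, adjusted p = 0.174 by limma with Benjamini-Hochberg adjustment). *ssp-31* (ZK1225.6) had 2.57, 8.54 and 5.03 RPM in control and 1.87, 4.11 and 3.40 RPM upon *unc-62* RNAi (log2 fold change -0.71, standard error 0.23). *ssp-33* (R08A2.3) had 1.98, 4.03 and 3.91 RPM in control and 1.64, 2.23 and 1.84 RPM upon *unc-62* RNAi (log2 fold change -0.75, standard error 0.25). All 3 shared the order of the *msp* genes, with control replicate 1 the lowest control, and overlapped between groups through that library. *ssp-37* (W02D9.5) departed from them, with 2.502, 2.05 and 0.699 RPM in control and 2.04, 1.40 and 3.51 RPM upon *unc-62* RNAi. Its fold change, 0.46 on the log2 scale (standard error 0.61, adjusted p = 0.805 by limma with Benjamini-Hochberg adjustment), was the highest of all members and came from replicate 3, in which it was 2.27 against -0.30 and -0.61. Without replicate 3 it was -0.43.

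The *nspd* genes were below 0 in every replicate, all 9 of them. *nspd-2* (K07F5.5), the best covered member of all, was covered by 608, 2181 and 1637 control reads and by 425, 1314 and 588 reads upon *unc-62* RNAi. These are 40.0, 127.5 and 76.3 RPM against 24.8, 57.5 and 31.8 RPM (log2 fold change -1.06, standard error 0.22, adjusted p = 0.144 by limma with Benjamini-Hochberg adjustment). *nspd-1* (ZK484.8) had 34.1, 107.7 and 66.4 RPM in control and 23.0, 43.3 and 27.0 RPM upon *unc-62* RNAi (log2 fold change -1.08, standard error 0.25). In both, *unc-62* RNAi replicates 1 and 3 were below every control and replicate 2 was above control replicate 1. The lowest *nspd* fold change was that of *nspd-4* (T23B7.1), with 7.31, 29.6 and 12.3 RPM in control and 2.63, 9.88 and 6.32 RPM upon *unc-62* RNAi (log2 fold change -1.35, standard error 0.24, adjusted p = 0.1197 by limma with Benjamini-Hochberg adjustment). *nspd-7* (Y43C5A.1) had the value nearest 0, with 48.2, 77.3 and 59.5 RPM in control and 43.0, 72.2 and 42.6 RPM upon *unc-62* RNAi. Its log2 fold change was -0.27 (standard error 0.19, adjusted p = 0.658 by limma with Benjamini-Hochberg adjustment), a difference of means within the spread of either group, 61.7 ± 14.7 against 52.6 ± 17.01 RPM (SD, n = 3 each). Whether *nspd-7* differs from the other *nspd* genes was not tested.

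The *spe* genes, whose products act in forming, activating and joining sperm to the egg, had fitted fold changes mostly near 0. Among them *spe-6*, *spe-36* and *spe-48* passed the filter on reads only upon *unc-62* RNAi. The filter thus selected against a fall in these genes, and the family's median rests partly on them. *spe-18* (F32A11.3), needed for assembling the bodies in which major sperm protein is packed, was the only one lower in all 3 replicates. It had 4.67, 8.19 and 8.01 RPM in control and 4.03, 5.03 and 4.32 RPM upon *unc-62* RNAi (log2 fold change -0.62, standard error 0.23, adjusted p = 0.344 by limma with Benjamini-Hochberg adjustment).

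*spe-39* (ZC404.3), which encodes a vesicle trafficking protein that is also used outside the germline, had 3.03, 1.81 and 2.33 RPM in control and 3.80, 2.23 and 1.46 RPM upon *unc-62* RNAi (log2 fold change -0.04, standard error 0.27). *spe-36* (F40F11.4), a gene needed for fertilization, had 0.658, 0.468 and 0.792 RPM in control and 0.759, 0.831 and 0.757 RPM upon *unc-62* RNAi (log2 fold change 0.28, standard error 0.29), on 8 to 19 reads per library. Neither gene had groups that stood apart, and their adjusted p was 0.972 and 0.750 by limma with Benjamini-Hochberg adjustment. The 3 other *spe* members, *spe-6*, *spe-29* and *spe-48*, had log2 fold changes between -0.07 and 0.10 on 6 to 48 reads per library. For *spe-6* this was a mean of -1.27, -0.78 and 2.34 in replicates 1, 2 and 3 (standard error 0.75). For *spe-48* the replicates were at 0.003, 1.27 and -1.49 (standard error 0.56). These 2 means near 0 thus do not show an unchanged level. The standard error of *spe-29* was 0.25.

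*spe-9* (C17D12.6), mutated in the strain, was covered by 1, 2 and 2 control reads and by 4, 2 and 5 reads upon *unc-62* RNAi and did not pass the filter. A difference was not detectable at this depth (0.0920 ± 0.0256 against 0.197 ± 0.0967 RPM, SD, n = 3 each, two-sided exact permutation p = 0.3, where 0.1 is the smallest p that 3 against 3 allows).

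What the members shared beyond their names was the order of the libraries. Control replicate 2 was the highest control for 38 of the 44 members, among them all 19 *msp*, 9 *nspd* and 4 *ssq* genes, and for 21.0% of all genes tested. Control replicate 1 was the lowest control for 32 members, against 12.2% of all genes, and *unc-62* RNAi replicate 2 was the highest of its group for 33, against 18.8%. The groups stood apart for 8 of the 44 members, all lower upon *unc-62* RNAi, against 6.93% of all genes lower and 6.44% higher. Overlap of the groups was thus common over all genes and not particular to the members. Control replicate 1 was below *unc-62* RNAi replicate 2 for 28 of 44 members and for 2303 of all 7333 genes tested. Of the 7 *spe* genes, 2 had control replicate 2 as the highest control, among them *spe-18*, and only *spe-18* had control replicate 1 as the lowest. Control replicate 3 was the lowest of all 6 libraries for *msp-38*, *msp-76*, *spe-6*, *ssp-34* and *ssp-37*, 5 of 44 members against 25.9% of all genes. The part of differences between batches in this order was not tested.

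**Figure D4:**
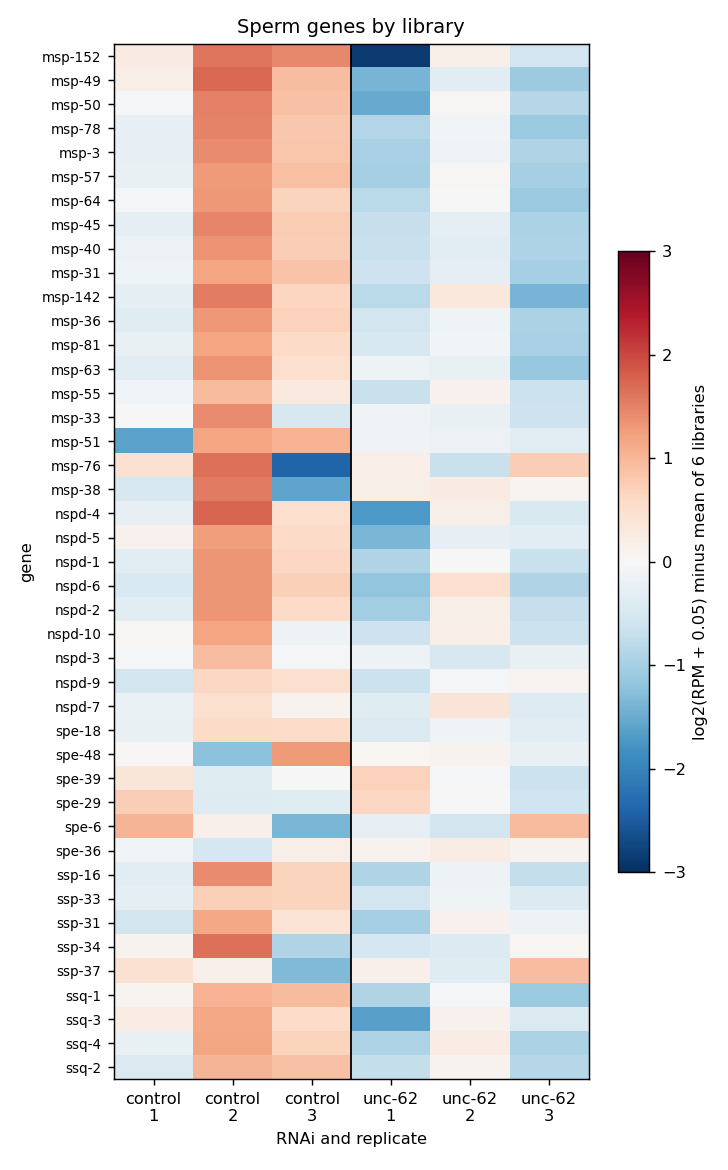
Level of 43 of the 44 members in each library, as log2(RPM + 0.05) minus the mean over the 6 libraries, with red above and blue below that mean. Columns are the 3 control RNAi and the 3 *unc-62* RNAi libraries. Control replicate 2 is red for nearly all *msp*, *nspd*, *ssp* and *ssq* genes, control replicate 1 is pale, and *unc-62* RNAi replicates 1 and 3 are mostly blue. The *spe-18* row shares this order, and the other *spe* rows drawn do not.

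Of the 93 listed genes, 49 did not pass the filter, and they were 16 *msp*, 1 *nspd*, 2 *smz*, 23 *spe* and 7 *ssp* genes. No reads covered 5 of them in any library, 27 had at most 5 reads in every library, and the highest count in a library was 55. Among the 44 with reads, the mean RPM was lower upon *unc-62* RNAi for 27 and higher for 17. The same count over all genes below the filter was not made. At so few reads these directions are not read as a change. At the edge of the filter, *msp-51* (10 reads in its lowest *unc-62* RNAi library) was covered by 3, 28 and 32 control reads and by 11, 14 and 10 reads upon *unc-62* RNAi and was just inside. *smz-1*, covered by 12, 39 and 6 control reads and by 9, 18 and 19 reads upon *unc-62* RNAi, was just outside. The *msp* family holds near-identical copies, whose sequences were not compared here. Reads that map equally well to several copies were left out by unique mapping. A count of 0 thus does not show that a gene was silent, and the split of reads among *msp* genes is uncertain. Whether unique mapping lowered the counts of the 23 *spe* genes, which were named from mutants, was not tested. Among members, *msp-31* and *msp-152*, and likewise *msp-63* and *msp-142*, are neighbouring protein-coding genes in the WBcel235 annotation.

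Other genes of the sperm line, outside these prefixes, were hardly covered. Of 20 such genes 18 were listed and 3 passed the filter. *fog-1*, which directs germ cells to become sperm, had 3.16, 3.04 and 1.77 RPM in control and 3.91, 2.71 and 1.89 RPM upon *unc-62* RNAi (log2 fold change 0.05, standard error 0.22). The cytoplasmic polyadenylation factor gene *cpb-1* had a log2 fold change of -0.57 and the zinc transporter gene *zipt-7.1* one of -0.05, and none of the 3 was called by limma, edgeR or DESeq2 or reached an unadjusted limma p under 0.05 (adjusted p = 0.580, 0.977 and 0.949 for *cpb-1*, *zipt-7.1* and *fog-1* by limma with Benjamini-Hochberg adjustment). The 15 genes below the filter together held 16, 40 and 32 control reads, against 28, 32 and 16 reads upon *unc-62* RNAi. Among these 15, *comp-1*, *msd-1* and *msd-3* had no reads in any library. The best covered, *msd-4*, had 6, 19 and 13 control reads and 9, 13 and 6 reads upon *unc-62* RNAi. Of the sperm phosphatase genes, *gsp-3* had 0 to 3 reads per library, and *gsp-4* had 4, 13 and 7 control reads and 2, 6 and 1 upon *unc-62* RNAi.

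Genes of oocytes and the female germline did not share the sperm genes' shift. All 20 genes of this list passed the filter, their median log2 fold change was 0.01 with a range of -0.55 to 1.27, and none was called in either direction (0 by limma, edgeR and DESeq2, and 0 at an unadjusted limma p under 0.05). Their summed level was 8337, 8457 and 7630 RPM in control and 8483, 7949 and 9024 RPM upon *unc-62* RNAi, with overlapping groups. The best covered of them, *perm-4* (C44B12.5), an eggshell permeability gene, had a control mean of 4079 ± 27.6 RPM and an *unc-62* RNAi mean of 3809 ± 556 RPM (SD, n = 3 each) (log2 fold change -0.13, standard error 0.13, adjusted p = 0.732 by limma with Benjamini-Hochberg adjustment). Control replicate 2 was the highest control for 3 of the 20 and control replicate 1 the lowest for 2, against 21.0% and 12.2% of all genes tested.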

How the data were processed

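The authors sequenced 3′-end enriched libraries, mapped the reads of 36 bases with Bowtie 0.12.7 to WS215, counted unique sense-strand matches, and deposited for 25531 transcripts a signal in RPM, relative to the uniquely mapped reads (CASAVA 1.7.0 is also named in the submitters' processing notes). From each file's smallest step, 100.0% of 153186 values were whole reads within 0.01, and these recovered reads gave filters and counts. The transcript with the highest mean RPM stood for each gene. The 2 identifiers that name no gene held 0 reads.

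Names came from RefSeq for WBcel235, a later assembly than WS215 (16959 of 17682 genes matched), so no coordinates are given. limma 3.58.1 (R 4.3.3) was fitted on log2(RPM + 0.05) with TMM scaling, a variance trend and the replicate block, with Benjamini-Hochberg adjustment at 0.1 over 7333 genes with at least 10 reads in all libraries of a group. The block follows the study's methods. edgeR 4.0.16 and DESeq2 1.42.0 on recovered reads and rank products (10000 permutations, 10% false positives) were alternatives. edgeR called 63 genes lower and 38 higher. Permutation tests and Wilson intervals used Python 3.11.15 and scipy 1.17.1. The limma and edgeR fits were also run on simulated reads, in which genes varied independently, with the same spread in every library. That run cannot show how the fits behave where families move together or a replicate varies more.

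The members, gene lists, tests and alternatives were chosen with earlier results of these data known. Named genes are the members past the threshold, in each prefix the 3 with the highest mean RPM and those with the highest and lowest fold change, *spe-9*, the genes at the edge of the filter and the most abundant gene of each list. Other named genes were chosen after their values were seen. The values of 1 member are counted in the sums but are not reported here by name.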

Additional observations from a re-analysis of the deposited data

How the results depend on the processing

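The median log2 fold change of the 44 sperm genes stayed below 0 under every alternative run, between -0.79 with a pseudocount of 1 RPM and -1.58 without control replicate 1 with no replicate block, and no member was called higher in any of them. The count of members called lower, 2 in the fit reported, was 0 with a pseudocount of 1 RPM, 13 with no filter on low counts, 18 by DESeq2, 5 with transcripts summed (80 over all genes), 7 by rank products, 0 by edgeR with no replicate block (72), 4 without control replicate 1 (76) and 0 without control replicate 3 (both with no block), and 0 to 32 over the 3 fits that left out a replicate. Over all genes, 60 were called lower and 36 higher in the fit reported, against 15 and 13 with a pseudocount of 1 RPM, 158 and 97 with no filter, 192 and 102 by DESeq2, 115 and 67 by rank products, 14 and 20 without control replicate 3, and 0 to 705 and 0 to 460 with a replicate left out. The cause of these differences was not tested. Replicate 3 had a wider spread, an SD of log2 fold changes over all genes of 1.225 against 0.662 and 0.700 in replicates 1 and 2.

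With no replicate block, 0 members were called lower (14 at an unadjusted p under 0.05), while over all genes tested 82 were called lower and 60 higher. Whether the numbers pair the libraries is not settled by the data, since deviations from the group means correlated at 0.417 and 0.198 in replicates 1 and 2 but at -0.183 in replicate 3.

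With a replicate left out, the median ranged from -1.23 to -0.89 over all members, -1.62 to -1.04 for *msp*, -1.22 to -0.85 for *nspd*, -1.02 to -0.86 for *ssp* and *ssq* together (-1.01 in the fit reported), -0.18 to 0.12 for *spe*, -0.58 to 0.049 for the other sperm-line genes and -0.07 to 0.01 for the oocyte list. Without control replicate 1 it was -1.62 for *nspd* and -1.59 for *ssp* and *ssq*, which were at -0.69 with a pseudocount of 1 RPM. The share of reads on members ranged from 0.0525% to 0.0826% in control and 0.0270% to 0.0368% upon *unc-62* RNAi, and the difference of *spe-9* from 0.0691 to 0.172 RPM. The sign turned for *msp-38* (-0.012 with a pseudocount of 1 RPM, -0.037 by edgeR, -0.28 by edgeR with no block, -0.36 without control replicate 3, and -0.36 to 1.18 with a replicate left out), *spe-39* (0.014 by edgeR with no block, 0.017 without control replicate 1, and -0.20 to 0.29 with a replicate left out) and *ssp-37* (-0.0475 without control replicate 3, and -0.43 to 0.99 with a replicate left out). Of the other values of named genes, 293 kept their direction and side of the threshold, 34 passed it only under the alternative and 13 no longer passed it.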
